A study of Homo sapiens with 18 samples.

Results

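To see what the exposure chamber did to the cells without the analyte, cultures from the exposure chamber at 0 ppm formaldehyde were compared with cultures that stood in the reference chamber at the same time. The comparison rests on 6 of the 18 arrays of the series, chosen by their labels: 3 arrays titled A-A549-not (exposure chamber) and 3 titled A-A549-co (reference chamber). All 6 cultures were A549 cells, an established line from a human lung carcinoma, grown on transwell membranes at the air-liquid interface (ALI) and kept for 72 h in a humidified atmosphere, and none received formaldehyde. Both chambers took a humidified gas stream, and only the exposure chamber was also fed by the vaporized carrier stream that brings in the analyte and carried a humidity sensor at its outlet. Each exposure-chamber array was paired with the reference-chamber array of the same replicate number, since both carry the same experiment number in their labels. The raw file of exposure-chamber replicate 2 is labelled with another date than its partner, so in that pair the chamber and what the date stands for cannot be told apart. The 12 other arrays come from the same chambers with 0.1 or 0.5 ppm in the exposure chamber. A549 is a single tumour line, so the arrays represent neither healthy airway epithelium nor different donors.

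At the air-liquid interface an epithelial layer is fed from below and meets the gas directly on its upper side. Lung epithelium is known to answer drying, stretch, flow and temperature through immediate early genes such as FOS, through heat shock and osmotic stress genes, and through the transcriptional coactivators YAP and TAZ. Type II alveolar cells, from which A549 keeps some features, make surfactant lipids and proteins, and airway cells secrete mucins and defence proteins.

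The values were MAS5 signals, the brightness of each probeset (a group of probes for one transcript) after background correction, on a linear scale. The median signal of an array lay between 29.0 and 34.0 for the 6 arrays, and log2 signals of probesets above the median correlated between arrays with r = 0.92 to 0.99. The actin control probesets, which compare the 3′ and 5′ end of one messenger RNA, differed between the chambers of an experiment. The 3′ minus 5′ log2 difference was higher in the exposure chamber by 1.21 in experiment 1. It was lower there by 0.24 in experiment 2 and by 1.69 in experiment 3, whose reference-chamber array had the lowest 5′ actin signal of the 6 (log2 6.85, against 7.75 to 9.45 on the other 5). The part of this difference in the results was not tested. In RNA of a whole culture, fewer cells of a kind and less RNA per cell cannot be told apart.

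Between exposure and reference chamber, 236 of the 27337 probesets above the median signal (mean signal over 28.7) had an unadjusted limma p under 0.05, the threshold used in the study, a share of 0.863%. Of these, 93 were higher (0.34%) and 143 lower (0.523%) in the exposure chamber. Among the probesets at or below the median 2873 of 27338 passed (10.5%, with 4.02% higher and 6.49% lower), and over all 54675 probesets 3109 passed (5.69%, with 1192 or 2.18% higher and 1917 or 3.51% lower). By its definition the threshold lets 5% of all probesets of a fit pass where nothing differs. It need not let 5% of the bright or of the dim part pass. After Benjamini-Hochberg adjustment in limma 0 probesets passed, and the lowest adjusted p was 0.733. When only the probesets above the median entered the fit, 2010 of them passed (7.35%, with 811 or 2.97% higher and 1199 or 4.39% lower), again with 0 after adjustment and a lowest adjusted p of 0.579. After quantile normalization 53.7% of the called probesets above the median were higher, against 39.4% on the deposited scale, so which direction had more calls turned with the scaling. Without experiment 1, 2 or 3 the 236 became 512, 24 or 54.

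The 3 experiments differed in how far the chambers stood apart. In experiment 1, 690 of the 27337 probesets (2.52%) differed by more than 1 on the log2 scale. In experiment 2 the count was 2063 (7.55%) and in experiment 3 it was 6071 (22.2%). Across probesets, the differences of experiments 2 and 3 were alike (Pearson r = 0.45), while those of experiment 1 were related to neither (r = -0.065 and -0.053). These correlations run over probesets, which are not independent replicates, and each difference uses the 2 arrays of 1 experiment.

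**Figure D1:**
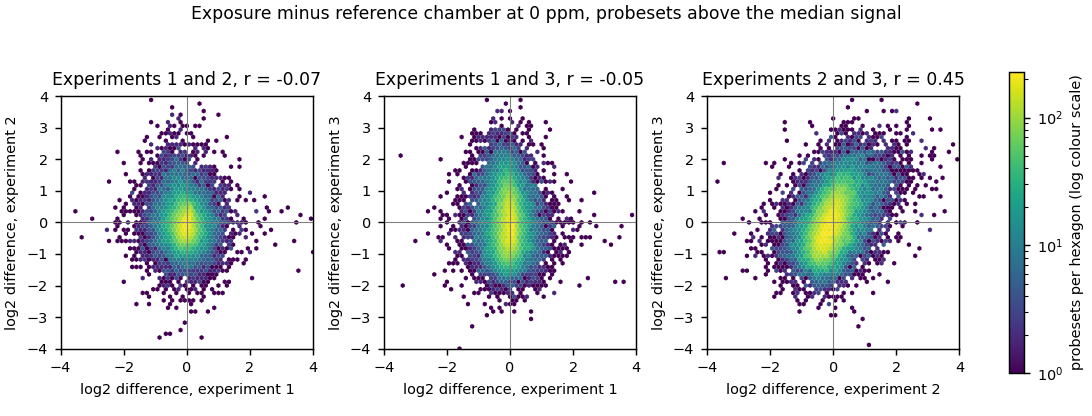
Differences between exposure and reference chamber (log2 signal) of probesets above the median, with 1 experiment on each axis and the number of probesets in a hexagon as colour on a log scale. The cloud is tilted for experiments 2 and 3 (r = 0.45) and not tilted for the 2 panels with experiment 1.

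Of the 236 called probesets, 161 name exactly 1 gene, and each of these had the same sign in all 3 experiments. Over all probesets above the median, 11.9% were higher and 21.2% lower in all 3. The text names the 12 genes with the largest differences in each direction and those among the brightest 25% of probesets, 14 higher and 15 lower. Their adjusted p ran from 0.776 to 0.813 in limma, so none can be told from the spread between experiments at this number of arrays. In 20 of the 29 the signals of the 2 chambers did not overlap, which held for 3.13% (higher) and 6.09% (lower) of all probesets above the median. Both sets were chosen by their differences on these same arrays, which favours a shared sign and groups without overlap. Neither count tests them.

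Among these genes, the largest difference toward the exposure chamber was that of CCNL1, cyclin L1, a regulator of splicing and transcription. Its signals were 305, 239 and 159 in the exposure chamber and 205, 85.2 and 19.2 in the reference chamber, in the order of experiments 1 to 3. The chambers overlapped, and the reference signal of experiment 3 was the lowest of the 6. The mean log2 difference was 1.70 (standard error 0.59, adjusted p = 0.813 in limma). For TNFAIP6, a hyaluronan-binding protein induced by inflammatory cytokines, the signals were 329, 429 and 184 against 155, 264 and 29.1, a log2 difference of 1.48 (standard error 0.51). DOCK5, an activator of the small GTPase Rac, had the most even difference of these genes, 1.41, 1.27 and 1.34 on the log2 scale in the 3 experiments. Its signals of 80.9, 47.1 and 44.7 in the exposure chamber stood above all 3 of the reference chamber, 30.3, 19.6 and 17.6 (adjusted p = 0.776 in limma).

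LRAT, which esterifies retinol for storage, was higher by 1.45 on the log2 scale (standard error 0.32), with signals of 34.9, 103 and 44.4 against 17.0, 37.5 and 12.4. The ubiquitin ligases ARIH1 and RNF103 were higher by 1.58 and 1.498, and the ubiquitin ligase subunit FBXL17 by 1.35. OSTM1, a subunit of a lysosomal chloride transporter, was higher by 1.38 and SMCHD1, a chromatin protein of gene silencing, by 1.31. AOPEP, an aminopeptidase, was higher by 1.63, the antisense transcript SCOC-AS1 by 1.25 and RPS16P5 by 1.53. RPS16P5 is a pseudogene of a ribosomal protein, so its signal can include its parent gene. Among the brightest 25% DENND4B, an activator of Rab GTPases, was at 5151, 5786 and 2345 against 3642, 1848 and 1003. TSC22D2, of the TSC22 family of regulators, was at 4686, 3466 and 3213 against 3157, 1947 and 1132 and did not overlap between chambers. These genes were higher by 1.12 and 0.97 on the log2 scale. Of the 14 genes that were higher, 9 had their largest difference in experiment 3 and 10 their smallest in experiment 1.

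Among the same named genes, the largest difference toward the reference chamber was that of IFITM10, of the interferon-induced transmembrane family. Its signals were 4.15, 53.02 and 90.6 in the exposure chamber and 86.7, 136 and 226 in the reference chamber, with the lowest value in experiment 1. The log2 difference was -2.36 (standard error 0.78, adjusted p = 0.813 in limma). ADIRF, a factor of fat cell differentiation, was at 5.45, 31.97 and 22.7 against 56.8, 44.7 and 92.0, a log2 difference of -1.96. ZFP41, a zinc finger protein, was at 26.3, 42.9 and 25.6 against 73.9, 96.1 and 134 with no overlap, a log2 difference of -1.68 (standard error 0.38). It also passed the threshold when experiment 1, 2 or 3 was left out. Its brightest other probeset had a log2 difference of -0.05.

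The other lower genes had log2 differences between -1.64 and -0.93. ITGA4, the alpha-4 integrin, was lower, with a log2 difference of -1.45 (signals 25.9, 12.1 and 19.7 against 41.3, 43.0 and 70.6), and the adhesion protein CEACAM7 and the membrane protease ADAM15 had log2 differences of -1.51 and -1.46. GRK3, a kinase of G protein-coupled receptors, had a log2 difference of -1.51. ARRB1, beta-arrestin 1, which binds such receptors after phosphorylation, was at 387, 550 and 532 in the exposure chamber and at 628, 945 and 1605 in the reference chamber. The chambers did not overlap, and the log2 difference was -1.02 (standard error 0.34). The remaining genes were COX19, a cytochrome c oxidase assembly factor (-1.64), MAD1L1 of the spindle checkpoint (-1.57), TTC9B (-1.54), the secreted glycoprotein OLFM1 (-1.53) and the mitochondrial calcium-binding protein EFHD1 (-1.43). FOXRED2, a flavoprotein of protein degradation in the endoplasmic reticulum (-0.93), and the long noncoding transcript BAIAP2-DT (-1.01) were among the brightest 25%. BAIAP2-DT was measured by a probeset that can cross-hybridize.

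**Figure D2:**
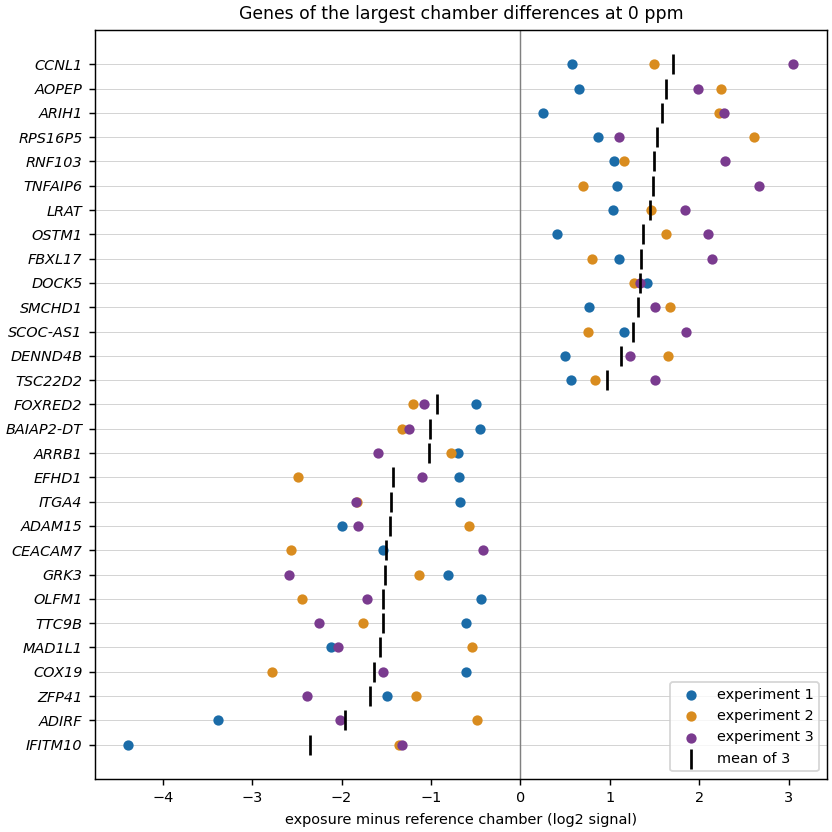
Difference between exposure and reference chamber (log2 signal, horizontal axis) of the 29 named genes (vertical axis), with a point for each experiment and a black line at the mean of the 3. All points of a gene lie on one side of 0, as the rule for naming requires. IFITM10 and ADIRF lie farthest to the left in experiment 1, at -4.38 and -3.38.

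The other probesets of the same genes seldom repeated these differences. Of the 29 genes 23 had further probesets, and 15 of them were named through a probeset that was not their brightest. The brightest other probeset had the same sign in 18 of the 23 and passed the threshold in 0. For CCNL1 it gave a log2 difference of 0.66, for ARIH1 -0.23 and for AOPEP -0.38. Without the replicate block, which leaves each difference as it is and changes its error, 14 of the 29 kept their call. Leaving out experiment 1, 2 or 3, 14, 5 or 4 of the 29 passed.

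Genes called by more than 1 probeset were looked at after their values were seen. In the fit of all probesets there were 3, NR4A2 and AOPEP (higher) and TF (lower), of 100 called genes with more than 1 probeset above the median. TF is transferrin, the iron carrier of plasma. One of its probesets was at 98.2, 81.0 and 126 in the exposure chamber and at 183, 150 and 401 in the reference chamber, with no overlap (log2 difference -1.15, standard error 0.33). A second was at 83.3, 44.3 and 103 against 133.1, 93.8 and 220 (-0.95, standard error 0.29), where the groups overlapped. Of the 3 TF probesets beside the first, only this second had the same sign. The first TF probeset did not pass when experiment 1, 2 or 3 was left out. In the fit of probesets above the median 106 of 951 such genes had 2 or more called probesets, 34 with all higher, 66 with all lower and 6 with opposite signs. Probesets of the same gene measure the same RNA on the same arrays and are not independent. How many such genes would arise without a chamber difference was not tested. ARRB1 had 3 of 7 called there, and the 7 had log2 differences between -1.02 and -0.24. GART, an enzyme of purine synthesis, had 3 of 7 called and higher by 0.74 to 0.94, while the other 4 lay between -0.05 and 0.13.

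Immediate early genes are transcribed within minutes of a stimulus without new protein synthesis, and FOS encodes a subunit of the AP-1 transcription factor. FOS was higher in the exposure chamber in all 3 experiments by nearly the same amount, 1.03, 0.92 and 0.80 on the log2 scale. Its signals were 275, 199 and 95.9 in the exposure chamber and 135, 105 and 55.0 in the reference chamber. The groups overlapped, and experiment 1 had the highest and experiment 3 the lowest signal in each chamber. The mean difference was 0.92 (standard error 0.28, adjusted p = 0.813 in limma). FOS passed the unadjusted threshold with the replicate block, and passed it neither without the block nor without experiment 1, 2 or 3. FOS was the only one of 16 measured immediate early genes past the threshold, where 4.4% of all genes were called by their brightest probeset, 1.44% as higher and 2.97% as lower. EGR1, a zinc finger factor of the same class, had differences of 0.36, 0.83 and 0.21, and ATF3 of 0.73, 0.32 and 0.25. NR4A1, an orphan nuclear receptor, had -0.11, -0.27 and -0.48. Over the list 3 genes were higher and 1 lower in all 3 experiments, where 11.3% and 20.6% of all genes were. The list's median difference was 0.10, against -0.10 over all genes.

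NR4A2, a relative of NR4A1 that was not in the list, was at 230, 202 and 97.9 against 88.2, 92.2 and 65.3 by one probeset (log2 difference 1.03, standard error 0.32). A second gave 224, 157 and 93.0 against 142, 73.5 and 40.6 (0.98, standard error 0.30). The remaining probeset had a log2 difference of 0.45 and did not pass. As for FOS, the highest signal of all 3 NR4A2 probesets was that of experiment 1 in the exposure chamber and the lowest that of experiment 3 in the reference chamber.

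The 250 bases before the start of FOS are shown since FOS is the called member of this list and its promoter holds the core of the cyclic AMP response element, TGACGT, in capitals. They lie on the plus strand at chr14:75278578-75278827 of GRCh38.p14 and come from RefSeq:
FOS: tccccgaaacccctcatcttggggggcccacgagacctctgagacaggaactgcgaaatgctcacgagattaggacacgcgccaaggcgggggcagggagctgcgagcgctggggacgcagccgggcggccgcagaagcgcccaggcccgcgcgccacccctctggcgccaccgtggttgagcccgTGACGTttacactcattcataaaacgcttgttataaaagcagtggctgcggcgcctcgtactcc
The match begins 64 bases before the start. Searched on both strands, TGACGT was found in 5 of the 11 promoters of immediate early genes that matched the RefSeq table and in 7.42% of 27305 promoters of all genes. A match is a run of letters and not a measured binding site.

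**Figure D3:**
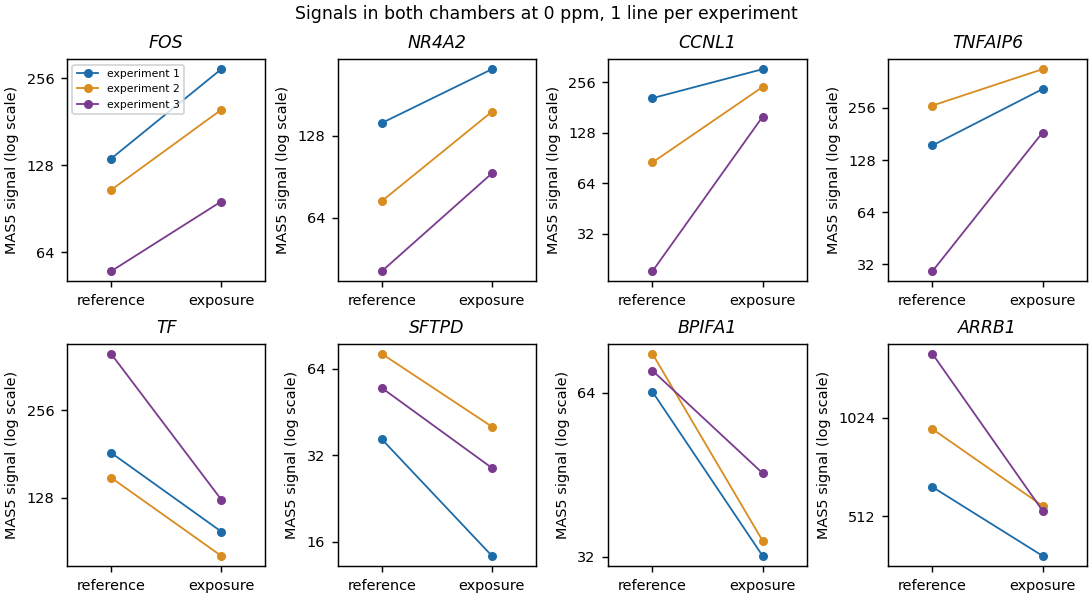
MAS5 signal (vertical axis, log scale, scaled for each gene) in the reference and the exposure chamber for 8 genes, with 1 line for each experiment. The lines of FOS and NR4A2 go up in each experiment, while those of CCNL1 and TNFAIP6 are steepest in experiment 3 and those of TF, SFTPD, BPIFA1 and ARRB1 go down in each experiment.

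The lists of stress genes gave few calls. Of 16 heat shock proteins and chaperones 0 passed in either direction, and the median was -0.19. In all 3 experiments 1 was higher and 4 were lower, beside 11.3% and 20.6% of all genes. HSF1, the master regulator of the heat shock response, was at 61.9, 149 and 129 against 144, 210 and 215 (log2 difference -0.82, standard error 0.31). It did not pass in the fit of all probesets and passed in that of probesets above the median, where 5.64% of genes were called by their brightest probeset, 1.36% as higher and 4.28% as lower. Its next brightest probeset had -0.20. The abundant HSP90AA1 and HSPE1 each had 0.13, while HSP90AB1 and HSPB1 had -0.38 and -0.51. The cold-induced RBM3 and CIRBP had 0.32 and 0.04, in a list of 4 with 0 calls. Of 14 genes of osmotic stress 0 passed in the fit of all probesets, and 2 were higher and 3 lower in all 3 experiments, beside the same shares of all genes. SLC5A3, the inositol carrier induced by hypertonicity, was at 1405, 1484 and 1112 against 1588, 453 and 457, so it was higher in experiments 2 and 3 and not in experiment 1 (0.94, standard error 0.50). It passed in the fit of probesets above the median alone.

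Targets of YAP and of mechanical stress had a median difference of 0.23 over 21 genes, where 5 were higher in all 3 experiments and 0 lower (11.3% and 20.6% of all genes), and 0 passed the threshold. The medians of the experiments were -0.01, 0.21 and 0.61. Of the 21 genes 14 had a higher and 7 a lower mean difference, where the median of all genes was -0.10. The share of all genes with a higher mean difference was not counted. KLF6 had differences of 0.25, 0.41 and 0.92, AMOTL2 0.33, 0.21 and 0.66 and KLF2, a flow-induced factor, 0.28, 0.56 and 0.32. Other targets were of mixed sign, such as CCN1 with 0.06, -0.40 and 1.07 and CCN2 with -1.40, 0.24 and 0.61. The median of this list was lowest in experiment 1, where the actin 3′ minus 5′ difference was above 0, and highest in experiment 3, where it was the most negative. The part of RNA quality in it was not tested.

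In the fit of all probesets 0 passed of 25 hypoxia and glycolysis genes (median 0.02) and 24 NRF2 targets of redox defence (-0.06). The same held for 8 metallothioneins (-0.0028), 13 p53 targets (-0.08) and 19 genes of formaldehyde oxidation (-0.16). In the fit of probesets above the median ALDOC (-0.78), of hypoxia and glycolysis, and 1 p53 target passed as lower, beside 4.28% of genes. ADH5, which with glutathione oxidizes formaldehyde, had -0.16, and ALDH1A1 0.03. Of 19 genes of the unfolded protein and integrated stress response (median -0.12) CHAC1, a glutathione-degrading enzyme, passed as lower, beside 2.97% of all genes. It was dim, at 8.38, 8.06 and 5.22 against 14.2, 28.1 and 27.4, below the median probeset on all 6 arrays. Of the same list SESN2 (-0.68) passed as lower in the fit of probesets above the median.

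In the lists of epithelial function the calls lay among genes of low signal. SFTPD, surfactant protein D, a collectin of innate defence, was at 14.3, 40.3 and 28.9 in the exposure chamber and at 36.4, 72.2 and 54.9 in the reference chamber. It was lower in each experiment, though the groups overlapped (log2 difference -1.04, standard error 0.29, adjusted p = 0.813 in limma). SFTPD did not pass without the replicate block, without experiment 1, 2 or 3, or with the actin covariate. SFTPC, the hydrophobic surfactant protein of type II cells, was at 27.4, 48.2 and 50.6 against 75.9, 62.6 and 73.9 with no overlap (log2 difference -0.80). It did not pass in the fit of all probesets, and another SFTPC probeset had 0.75. ABCA3, the lipid pump of lamellar bodies, had -0.26, -0.44 and -1.54. Of 15 genes of surfactant and type II cells 0 were higher and 5 lower in all 3 experiments, where 11.3% and 20.6% of all genes were, and the median was -0.18. SFTPD alone passed in the fit of all probesets, where 2.97% of all genes were called as lower. In the fit of probesets above the median 1 gene of the list passed as higher and 3 as lower, beside 1.36% and 4.28% of genes. LPCAT2, an enzyme of lipid remodelling, went the other way in experiments 2 and 3 (-0.01, 1.10 and 2.79).

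Of 18 mucins and airway secretion genes 1 was higher and 6 lower in all 3 experiments, beside 11.3% and 20.6% of all genes (median -0.18). BPIFA1, a secreted defence protein of the upper airway, was at 32.1, 34.2 and 45.6 in the exposure chamber and at 64.3, 75.6 and 70.4 in the reference chamber. All 3 reference signals stood above those of the exposure chamber (log2 difference -0.92, standard error 0.29, adjusted p = 0.813 in limma). BPIFA1 alone passed in the fit of all probesets, where 2.97% of all genes were called as lower. It did not pass when experiment 1, 2 or 3 was left out. In the fit of probesets above the median 1 gene of the list passed as lower, beside 4.28% of genes. MUC5AC, a gel-forming mucin, had -0.29, -0.02 and -1.30, and PIGR, the carrier of secretory antibodies, -0.44, -0.87 and -0.27. The abundant AGR2 and SLPI had 0.10 and -0.17.

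Of 16 tight junction and adhesion genes 0 passed in the fit of all probesets (median -0.07), with TJP1 at 0.36 and MARVELD3 at -0.59. Of 14 keratins and genes of mesenchymal transition (-0.13) SNAI2 passed as higher, as 1.44% of all genes did. Of 16 genes of ion and water transport (0.17) CFTR and AQP4 passed as higher. All 3 were dim: AQP4, a water channel, had an adjusted p of 0.733 in limma and was at 10.3, 7.12 and 20.0 against 0.82, 1.72 and 1.70, all below the median signal of 28.7. Another AQP4 probeset had a log2 difference of -2.27. Of 19 collagens, matrix genes and proteases (-0.10) 2 were higher and 7 lower in all 3 experiments, beside 11.3% and 20.6% of all genes. MMP9, a gelatinase, passed as lower, as 2.97% of all genes did, at 4.67, 9.27 and 14.3 against 17.6, 19.6 and 26.5. MMP2, the other gelatinase, was at 43.5, 66.7 and 69.3 against 75.3, 86.1 and 160 (log2 difference -0.79). It did not pass in the fit of all probesets. In the fit of probesets above the median 1 tight junction or adhesion gene and 2 of the collagen list passed as lower, beside 4.28% of genes.

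Of 18 chemokines, interleukins and NF-kB targets 0 passed in the fit of all probesets. In that of probesets above the median 1 passed as higher, beside 1.36% of genes. The median was 0.28, with medians of -0.05, 0.12 and 0.50 in experiments 1 to 3. CXCL1 had 0.71, 0.08 and 1.16, CXCL5 0.55, 0.03 and 1.32 and LIF, a cytokine of the interleukin 6 family, 0.20, 0.69 and 1.35. Of the 18 genes 13 had a higher and 5 a lower mean difference, where the median of all genes was -0.10. In all 3 experiments 3 were higher and 1 lower, beside 11.3% and 20.6% of all genes. As for the YAP targets, the median was lowest in experiment 1 and highest in experiment 3, and the part of RNA quality was not tested. Of 18 interferon-induced genes 0 were higher and 5 lower in all 3 experiments, beside 11.3% and 20.6% of all genes. Among the 5 were IRF7 (-0.71), ISG15 (-0.59) and IFITM1 (-0.57). In the fit of all probesets 0 of the 18 passed, and in that of probesets above the median 1 passed as lower. The median of this list was -0.05, and 0.02 after quantile normalization, so its sign depends on the scaling.

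Genes of growth and metabolism had no called member in the fit of all probesets. In the fit of probesets above the median 2 genes of DNA replication, MCM4 (0.55) and CCNE2 (1.08), passed as higher. Of sterol synthesis STARD4 (0.76) passed there as higher and SREBF2 (-0.71) as lower. That fit called 1.36% of genes as higher and 4.28% as lower by their brightest probeset. The medians were -0.03 for 19 genes of DNA replication, 0.08 for 20 of mitosis, 0.03 for 13 of sterol synthesis and -0.18 for 14 of fatty acid synthesis. They were 0.00 for 13 ribosomal proteins, -0.09 for 22 genes of the respiratory chain, -0.09 for 21 of the proteasome, 0.08 for 19 splicing regulators and 0.01 for 11 long noncoding RNAs. Of the mitosis genes 6 were higher and 1 lower in all 3 experiments, beside 11.3% and 20.6% of all genes, with CDK1, the mitotic kinase, at 0.38, 0.26 and 1.26. Of the splicing regulators 5 were higher and 0 lower in all 3. Among these 19 genes 17 had a higher and 2 a lower mean difference, where the median of all genes was -0.10. Their medians in the 3 experiments were 0.12, 0.31 and -0.09. The ribosomal proteins had 0 that were higher and 0 that were lower in all 3 experiments. Their medians in the 3 experiments were 0.11, 0.38 and -0.52.

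**Figure D4:**
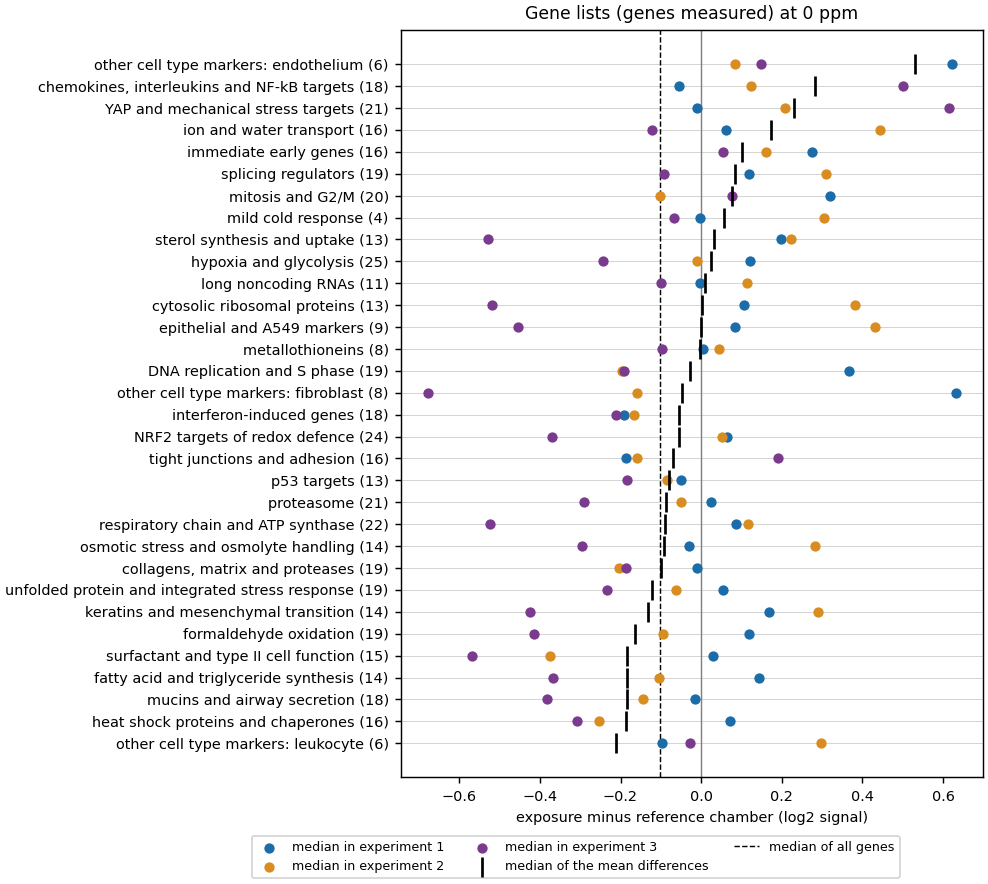
Median difference between exposure and reference chamber (log2 signal, horizontal axis) of the 32 gene lists (vertical axis, number of genes measured), as a point for each experiment and a black line for the median of the genes' mean differences. The dashed line is the median of all genes, -0.10, and most lists have points on both sides of 0.

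The 9 measured markers of epithelium and A549 were all above the median signal, with summed signals of 82498 to 110497 in the exposure chamber and 77534 to 123984 in the reference chamber. Of them 0 passed, and 0 had the same sign in all 3 experiments. Fibroblast markers were above the median in 2 of 8, endothelial ones in 0 of 6 and leukocyte ones in 2 of 6. The summed signals of the fibroblast markers were 267 to 541 in the exposure and 279 to 567 in the reference chamber. For the endothelial markers they were 40.8 to 69.9 and 53.04 to 77.2, and for the leukocyte markers 4331 to 6670 and 2389 to 5583, mostly from lysozyme (LYZ), which is also made by secretory epithelium. The dim probesets of TEK (higher), ESAM and NKG7 (lower), passed the threshold, at signals of at most 32.8. Of all genes 1.44% were called as higher and 2.97% as lower.

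The other 6 experiments used the same chambers with formaldehyde in the exposure chamber, and share no array with these, so chamber and formaldehyde cannot be told apart there. Of the 236 called probesets, 199 had the same sign in the mean chamber difference at 0.1 ppm (84.3%, 95% Wilson interval 79.1 to 88.4%). The interval counts probesets as if independent and does not measure the spread between experiments. Over all probesets above the median, the share of either sign gives 51.3%. At 0.5 ppm 154 had the same sign (65.3%, against 51.9%). In the single experiments the share was 87.3%, 59.3% and 61.0% at 0.1 ppm and 54.2%, 69.9% and 54.2% at 0.5 ppm.

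Replicate 1 at 0.1 ppm was the experiment most like experiment 3 at 0 ppm, with r = 0.72 across the probesets above the median. Its reference-chamber array had the lowest 5′ actin signal of all 18 (log2 5.90), and its actin 3′ minus 5′ difference was lower in the exposure chamber by 3.12. The 54 probesets called without experiment 3 had the same sign there in 64.8%, and in 51.9% and 79.6% in replicates 2 and 3 at 0.1 ppm. At 0.5 ppm these shares were 64.8%, 57.4% and 51.9%. Over all probesets above the median, the share of either sign gave 50.1 to 51.6% in these 6 experiments. The part of RNA quality in the shared direction was not tested. In the fit over 18 arrays 21 of the 29 named genes passed the threshold, and 25 with the actin difference as a covariate. That covariate fit called 3295 probesets above the median against 236 in the main fit, and the 29 were chosen as called. The count therefore cannot show how large the part of RNA quality is.

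Of the 14 genes named as higher, 13 were higher at 0.1 ppm and 7 at 0.5 ppm, and of the 15 lower ones 15 and 12 were lower. Over all probesets above the median 43.8% were higher and 56.2% lower at 0.1 ppm, and 41.1% and 58.9% at 0.5 ppm. In the mean of replicates 2 and 3 at 0.1 ppm, without replicate 1, only 6 of the 14 were higher and 10 of the 15 lower. The share over all probesets was not counted for that mean. FOS had a mean difference of 1.10 at 0.1 ppm, from 2.60, 0.10 and 0.59 in the 3 replicates, and 0.04 at 0.5 ppm. CCNL1 had 3.27, 0.23 and 0.64 at 0.1 ppm, and the TF probeset of the larger difference had -2.01, -0.41 and -0.0058. In these 3 genes replicate 1 was far from the others. TNFAIP6 had 2.90, 1.09 and 1.17 at 0.1 ppm and a mean of 0.05 at 0.5 ppm. SFTPD had mean differences of the opposite sign, 0.31 and 0.22, over replicates of both signs, and BPIFA1 had -0.0018 and -0.39. For no probeset did the chamber difference at 0 ppm differ from the mean of those at 0.1 and 0.5 ppm after adjustment in limma, where 2167 passed an unadjusted p of 0.05 and the lowest adjusted p was 0.758.

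**Figure D5:**
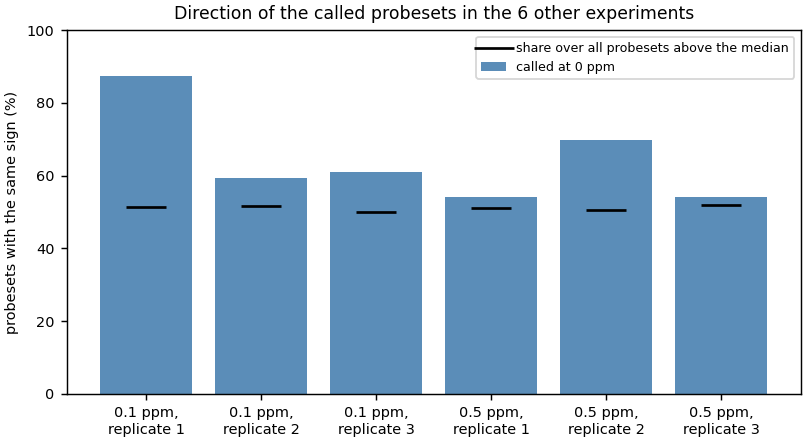
Share of the 236 probesets called at 0 ppm that had the same sign (vertical axis, percent) in each of the 6 experiments with formaldehyde in the exposure chamber (horizontal axis), as bars. The black lines give the share over all probesets above the median, near 50%, and the bar of replicate 1 at 0.1 ppm is the highest at 87.3%.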

How the data were processed

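Biotin-labelled RNA, amplified from the 3′ end with an oligo-dT based kit, of each culture was hybridized by the authors to 1 Affymetrix HG-U133 Plus array. The deposited values are MAS5 signal intensities on a linear scale, made by the authors with default settings of the affy package and scaled on each array to a trimmed mean of 500. One-colour arrays give no depth, and their number limits the precision. Signals were taken to log2, and all 54675 probesets of the 6 arrays were fitted in limma 3.58.1 (R 4.3.3) with the experiment as a block, followed by eBayes with Benjamini-Hochberg adjustment. The threshold was an unadjusted p under 0.05, as in the study's methods, which name eBayes between conditions and no block. All p-values of the text come from limma and are unadjusted where not called adjusted. Array pairs share an experiment number in the labels' raw file names. The deviations of same-numbered arrays correlated with r = 0.319, 0.0090 and 0.333, against -0.346 to 0.105 for other numbers. Deviations were taken from the mean of the 3 arrays of a chamber. Lower values for other numbers therefore follow in part from higher ones for the same number. The file of exposure-chamber replicate 2, the pair of lowest r, carries another date. The labels do not say that the 3 experiments used separate cell stocks, so p-values measure only the spread between them.

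Gene names come from the platform annotation, with symbols updated by gene number for 41043 of the 41097 probesets that name 1 gene (1801 name several and 11777 none). Named were the 12 probesets in each direction with the largest mean difference among those above the median, past the threshold, naming 1 gene and of the same sign in all 3 pairs, up to 6 more in the brightest 25%, and the called and brightest members of 32 gene lists, each gene by its brightest probeset. Other named genes were chosen after their values were seen. The members and lists were chosen with earlier results of these data known. The fit was tested on simulated data. Alternatives were no replicate block, quantile normalization, 32 added to each signal, a fit of bright probesets alone, a trended prior, all 18 arrays, leaving out each experiment and, chosen after seeing the data, all 18 arrays with the actin difference as a covariate.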

Additional observations from a re-analysis of the deposited data

How the results depend on the processing

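The 3 experiments limit every call, and 0 probesets passed an adjusted p of 0.05 in limma under any alternative. With no replicate block 2646 probesets passed over all, 300 of them above the median, against 3109 and 236 with the pairing, and 20 of the 40 called probesets among those named by the rule lost their call. The count above the median was 2653 with 32 added to each signal, 2010 with only those probesets in the fit, 2698 with a trended prior, 1040 with all 18 arrays and 3295 with the actin covariate, where it was 5639 over all probesets. The fit of bright probesets has 2010 in all, since no dim ones enter it. Leaving out an experiment gave 24 to 512 above the median (24 without experiment 2, 54 without 3 and 512 without 1). The share of called probesets with the same sign at 0.1 ppm was 89.4% with 32 added, 95.3% with the trend and 90.1% with all 18 arrays. Over all probesets above the median, the share of either sign gave 52.8%, 50.4% and 52.0%. When leaving out an experiment the share was 70.8 to 92.4%, against 45.6 to 52.1%. At 0.5 ppm it was 75.4% with 32 added and 80.0% with the trend, against 53.8% and 50.5%. The fits differ in the spread that eBayes shares between probesets. The main fit takes it from bright and dim probesets together, the fit of bright probesets from those alone and the trended prior by signal. The cause of these shifts was not tested.

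The median of all genes was -0.10 on the deposited scale, -0.056 after quantile normalization and -0.041 with 32 added. Of the 32 list medians, 1 moved beyond the spread of the pairs with 32 added (endothelial markers, from 0.53 to 0.03), 1 after quantile normalization and 1 in the fit of bright probesets (long noncoding RNAs, 0.22). Without experiment 1, 2 or 3, 3, 1 and 3 did, and without experiment 3 that of the collagens was 0.05. The fits without the block, with the trend and with all 18 arrays leave each difference as it is, so they say nothing of the medians. In the fit of bright probesets the endothelial list had no gene left.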
